A study of Neurospora crassa with 24 samples.

Results

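The 100 most abundant transcripts of *N. crassa* mycelium took up 42.5 to 53.0% of each RNA-seq library, about as much as all other transcripts together. They were chosen by measured level: CPM, counts scaled so that every library has the same total, were taken in each of the 24 libraries, averaged, and the 100 genes with the highest mean were kept out of 9730. Of these libraries, 12 came from ΔMSN1, strain FGSC #11345, in which *msn-1* (NCU02671), the gene of a transcription factor, is knocked out. The other 12 came from WT, strain FGSC #2489. Cultures of both strains grew in liquid Vogel's medium with glucose, arginine and biotin, were kept for 2 days in cycles of 11 h light and 11 h dark, and were then held in darkness. A single culture per strain and time gave a poly(A) library at 0 to 22 h, in steps of 2 h. Transfers were staggered so that harvest took 10 h in all.

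The most abundant messages of a growing fungus are known to come from few kinds of gene. Ribosomal proteins and translation factors build the protein synthesis machinery, glycolytic enzymes carry the carbon flux from glucose, histones package new DNA, and secreted proteins build the cell wall. In *Neurospora* the clock-controlled genes (*ccg*) were named because the circadian clock drives their RNA, and several of them belong to the metabolic and cell surface programmes. Genes of thiamine synthesis are known in fungi to be shut off by supplied thiamine.

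Libraries held 2415479 to 9829687 estimated counts in ΔMSN1 and 2732470 to 8094126 in WT. The deleted gene *msn-1* stood at 0 in 11 of 12 ΔMSN1 libraries, with 0.41 estimated counts in the remaining one (10 h), against 25.7 to 50.8 CPM in WT. Sequencing lanes are given for ΔMSN1 alone, which means that lane and strain cannot be told apart. Since CPM of a library add up to a fixed total, each level is a share, and fewer cells of a kind cannot be told apart from less RNA per cell. The deposited values may already be divided by gene length, as the smallest values above 0 fell with length across 1188 genes. The order of genes therefore holds on the deposited scale only: after multiplication by gene length 84 of the 100 members would have been chosen, and after division by it 86.

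Members took 47.3% ± 3.43 of the ΔMSN1 libraries and 50.7% ± 1.73 of the WT libraries (mean ± SD over 12 times). In ΔMSN1 the share moved between 42.5% at 22 h and 53.0% at 16 h, with a median of 47.3%. In WT it moved between 46.7% at 22 h and 52.8% at 12 h, with a median of 50.9%. At 11 of 12 matched times the share was lower in ΔMSN1, with a mean difference of −3.41 percentage points over all 12. The gap was widest at 8 h, at 42.7% in ΔMSN1 and 52.0% in WT, and was turned round at 16 h, at 53.0% in ΔMSN1 and 50.04% in WT. As a sum over chosen genes the share was not tested.

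Over time the ΔMSN1 share stood at 49.1% at 2 h, 42.7% at 8 h, 53.0% at 16 h and 44.3% at 18 h, so that it went down and up more than once. In WT the share climbed in small steps between 2 h and 12 h and declined to 22 h. The low ΔMSN1 libraries at 8 h and 22 h were among the deepest and the shallowest, with 9670463 and 2458212 estimated counts.

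**Figure D1:**
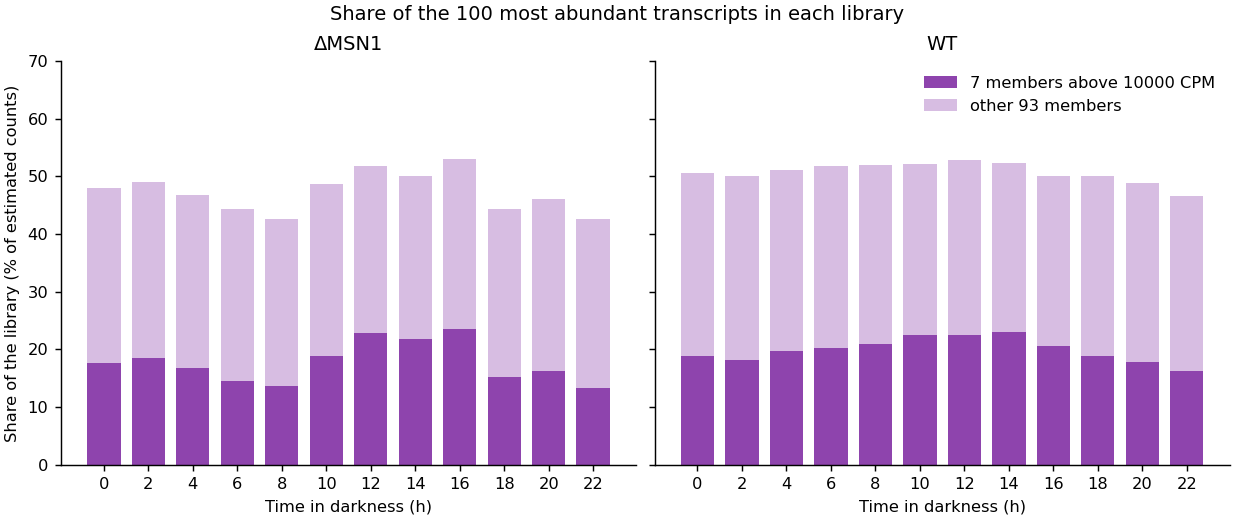
Share of each library (y axis, percent of estimated counts) held by the 100 members against hours in darkness (x axis), with ΔMSN1 on the left and WT on the right and 1 library per bar. Dark bars are the 7 members with means above 10000 CPM and light bars the other 93. The dark part spans 13.2 to 23.6% in ΔMSN1 and 16.3 to 22.9% in WT, whereas the light part stays between 28.2 and 32.0% in every library.

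Most of this movement sat in 7 genes, set apart after their values were seen because the next mean was far lower (15184 against 8705 CPM). They held 13.2 to 23.6% of the ΔMSN1 libraries and 16.3 to 22.9% of the WT libraries. The other 93 members held 28.2 to 30.5% in ΔMSN1 and 29.4 to 32.0% in WT. Over all 24 libraries the SD was 3.05 percentage points for the 7 genes and 0.989 for the other 93. Without the 7 genes the share was still lower in ΔMSN1 at 11 of 12 times, with means of 29.5% in ΔMSN1 and 30.8% in WT. Adding genes in order of level, 50% of a library was reached with 81 to 148 genes in ΔMSN1 and 82 to 117 in WT.

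Thiamine synthesis led the list. NCU06110, the thiazole biosynthetic enzyme, had the highest mean of all genes, 40108 CPM, and *nmt-1*, which in fission yeast serves the pyrimidine branch of the same vitamin, was second at 32761 CPM. NCU06110 ranged from 25148 CPM at 8 h to 48766 CPM at 14 h in ΔMSN1 (median 37372), and from 27201 CPM at 10 h to 52789 CPM at 12 h in WT (median 41686). The transcript of NCU06110 was thus low at 6 and 8 h in ΔMSN1 and at 10 h in WT. For *nmt-1*, ΔMSN1 libraries ran from 17080 CPM at 6 h to 46248 CPM at 16 h (median 28472), and WT libraries from 22276 CPM at 10 h to 49866 CPM at 14 h (median 35041). The pair shared its deepest dips, at 6 to 8 h in ΔMSN1 and at 10 h in WT. In ΔMSN1 *nmt-1* was low again at 18 and 22 h (22040 and 22619 CPM), and NCU06110 at 22 h (30262 CPM). Together the pair filled 4.32 to 9.30% of ΔMSN1 libraries and 4.95 to 10.1% of WT libraries. The strain difference passed the test for neither gene, at log2 values of −0.28 ± 0.15 for NCU06110 (adjusted p = 0.175) and −0.42 ± 0.16 for *nmt-1* (adjusted p = 0.0727). For *nmt-1* it passed when 2, 10 or 16 h was left out (adjusted p = 0.0399, 0.0306 and 0.0344).

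Of the 4 clock-controlled genes among these 7, *ccg-1*, a glucose-repressible gene, fell in ΔMSN1. It ranged from 11915 CPM at 0 h to 40458 CPM at 12 h in ΔMSN1 (median 21913) and from 18007 CPM at 4 h to 48443 CPM at 12 h in WT (median 29066). The ranges overlapped, yet ΔMSN1 was the lower strain at each of 12 times (log2 difference −0.53 ± 0.08, adjusted p = 0.000273). Its course was alike in the strains, low in the first 6 h and highest at 12 h.

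*ccg-14* also fell in ΔMSN1 (log2 difference −0.77 ± 0.18, adjusted p = 0.0066). Its levels were 5029 CPM at 22 h to 20127 CPM at 12 h in ΔMSN1 (median 12490) and 13521 CPM at 20 h to 21286 CPM at 10 h in WT (median 18472). ΔMSN1 came up to the WT level at 12 and 16 h only, where it was the higher strain. *ccg-16*, which held the first place in 4 ΔMSN1 libraries and 3 WT libraries, ranged from 20436 CPM at 10 h to 43892 CPM at 6 h in ΔMSN1 (median 36217) and from 15456 CPM at 12 h to 41558 CPM at 10 h in WT (median 30082). It was high through most of the ΔMSN1 series, whereas WT dropped at 12, 14 and 16 h, and the difference of 0.13 ± 0.18 did not pass (adjusted p = 0.647). *ccg-13*, also listed as a cell wall protein, spanned 5236 to 32052 CPM in ΔMSN1 (median 17761) and 11229 to 32555 CPM in WT (median 19565), with −0.41 ± 0.22 (adjusted p = 0.186).

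NCU00399, annotated as the cell wall protein PhiA, completed the 7. It ranged from 6313 CPM at 22 h to 35815 CPM at 12 h in ΔMSN1 (median 18257) and from 15320 CPM at 22 h to 44609 CPM at 10 h in WT (median 23451). The peak at 10 h put it in the first place of that WT library. Its fall in ΔMSN1 passed narrowly (log2 difference −0.66 ± 0.22, adjusted p = 0.0418) and was lost on library size alone (0.0501) and, at adjusted p up to 0.0851, when any of 0, 2, 4, 6, 8, 10, 18 or 22 h was left out. *ccg-13*, *ccg-14* and NCU00399 were at or near their ΔMSN1 minimum in the same 2 libraries, 8 h and 22 h, which also had the lowest shares.

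**Figure D2:**
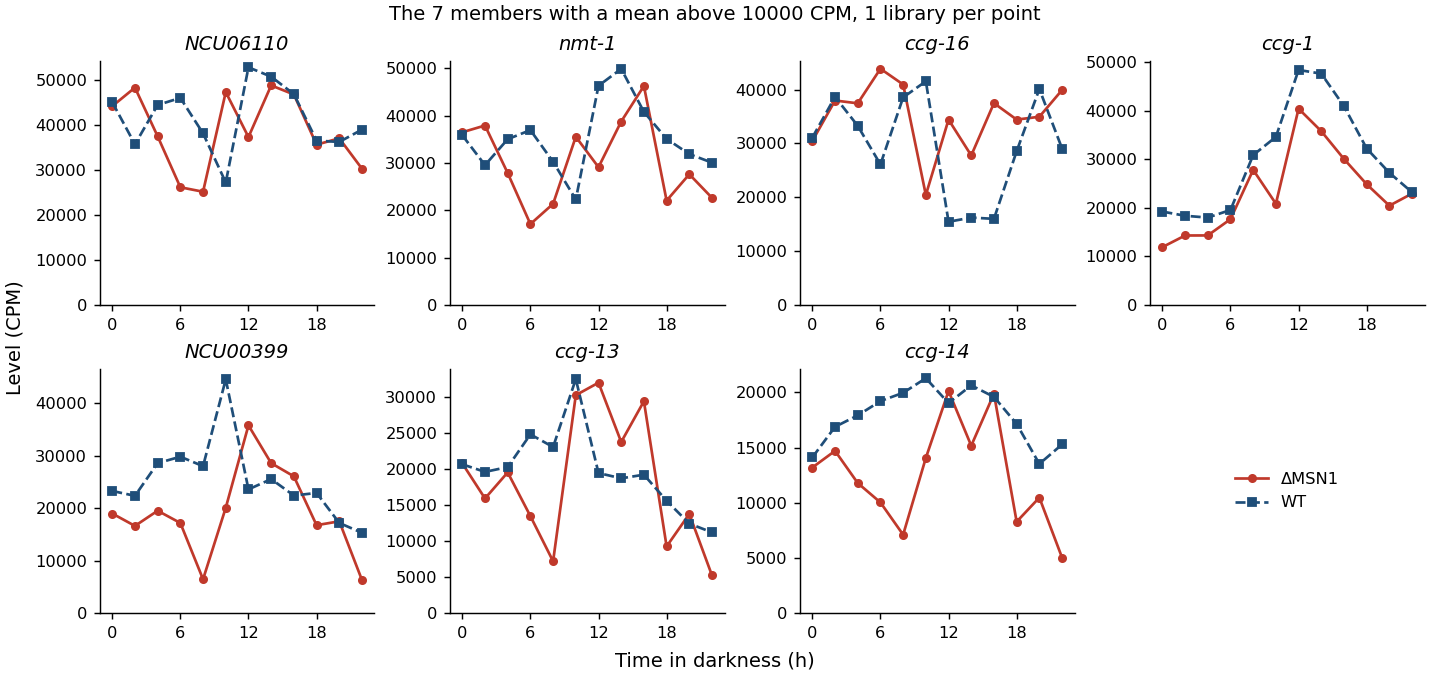
Level in CPM (y axis) of each of the 7 most abundant members against hours in darkness (x axis), with ΔMSN1 in red circles and WT in blue squares and 1 library per point. NCU06110 and *nmt-1* dip at 6 to 8 h in ΔMSN1 and at 10 h in WT, and are low again in ΔMSN1 at 22 h. *ccg-1* peaks at 12 h in both strains, and *ccg-14* lies below WT in ΔMSN1 except at 12 and 16 h.

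Across all 100 members, 43 fell and 3 rose in ΔMSN1 in a test with time as a factor (edgeR, adjusted p below 0.05 over 7310 genes). Over all tested genes 9.93% fell and 11.9% rose. The median log2 difference was −0.25 over the members and 0.01 over all tested genes. Every member's range in ΔMSN1 overlapped its range in WT, which was not counted over all tested genes, so it says nothing particular about the members. On CPM, the 3 that rose were higher in ΔMSN1 at 12 of 12 times. Of the 43 that fell, 2 were lower at all 12 times (*ccg-1* and *cyh-2*) and 9 at 11 or more. Counts of times are on CPM throughout, whereas the calls used the TMM factors described below. On CPM the median log2 difference of all tested genes was 0.19, so counts of times favour rises over falls. NCU00413, for example, was called lower but was lower on CPM at 6 of 12 times.

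These counts depend on the scale. With TMM factors, which set libraries on a common level for the bulk of genes and ran from 0.838 to 1.26 in ΔMSN1 and 0.859 to 1.10 in WT, 6.52% of the members' calls and 54.5% of all calls were rises. On library size alone, that is on CPM as printed here, the median of all tested genes shifted by 0.18 on the log2 scale, and 16 members fell and 12 rose, against 3.79% and 32.5% of all tested genes. Rises were then 42.9% of the members' calls and 89.6% of all calls. Relative to the median of all genes the members lay at −0.26 with TMM factors and −0.27 on library size alone. The 16 falls were all among the 43 and the 3 rises all among the 12. A change of factors shifts all genes by nearly the same amount. Both agreements therefore follow largely from the scaling and are no further support for the calls.

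The count of falls was also sensitive to single times. It was 28 without 4 h, 25 without 6 h, 27 without 14 h and 27 without 18 h, each of them among the 43. Leaving out a time also added members. The count was 55 without 16 h, with all 43 among them, and 39 without 2 h, of which 36 were among the 43. A core of 27 calls, 25 falls and the rises of *hH3* and NCU00811, passed whichever time was left out. Of these, 13 also passed in the same direction under every other setting tried, among them *ccg-14*, *gpd-1*, *emp-7*, *crp-7*, *cyh-2*, *sod-1* and *hH3*. The counts of 27 and 13 were not made over all tested genes, so they cannot be set against a background.

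**Figure D3:**
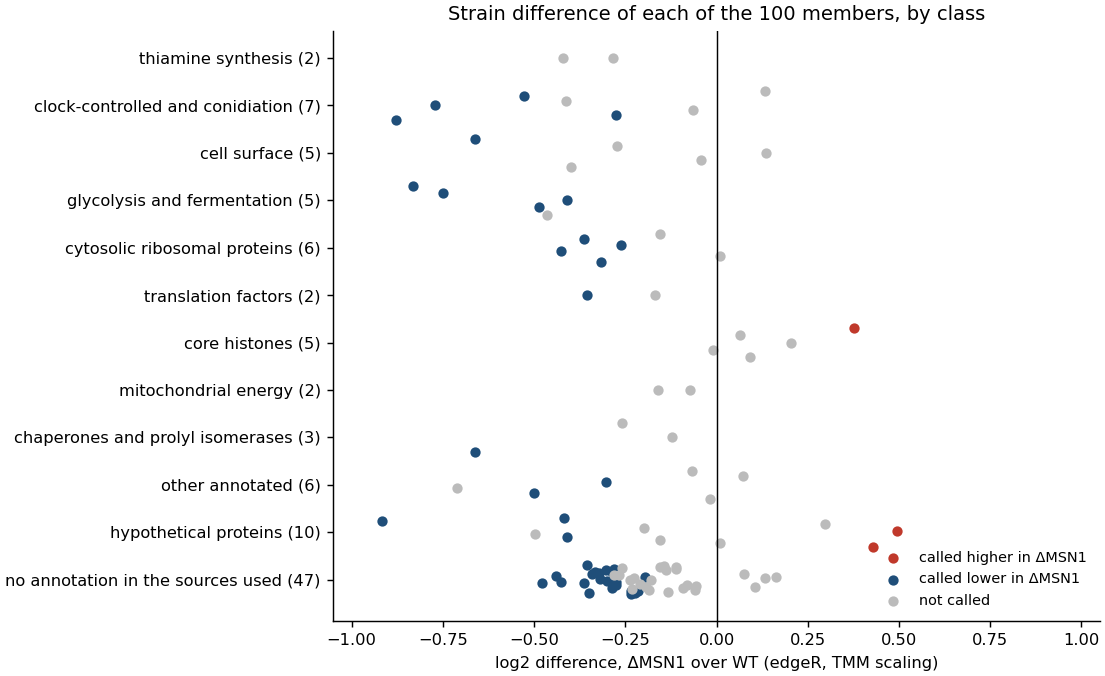
Log2 difference of ΔMSN1 over WT (x axis, edgeR with TMM scaling) for each of the 100 members, in rows by class with the number of members in parentheses. Blue points fell and red points rose at adjusted p below 0.05, and grey points did not pass. All 5 points of glycolysis and 43 of 47 of the genes with no annotation lie below 0, and the red points, *hH3*, NCU00811 and NCU04276, lie at 0.38 to 0.50.

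The class of glycolysis and fermentation stood lowest. Of its 5 members 4 fell, with a median log2 difference of −0.49, and its share averaged 1.77% in ΔMSN1 and 2.46% in WT. *gpd-1*, glyceraldehyde-3-phosphate dehydrogenase and also known as *ccg-7*, ranged from 2929 CPM at 22 h to 7497 CPM at 10 h in ΔMSN1 (median 5218) and from 4956 CPM at 10 h to 13650 CPM at 14 h in WT (median 7314). It was the higher in ΔMSN1 at 0, 2 and 10 h and the lower at the other 9 times (log2 difference −0.83 ± 0.21, adjusted p = 0.0116). *emp-7*, the enolase, ranged from 2351 CPM at 22 h to 5257 CPM at 0 h in ΔMSN1 (median 3821) and from 4075 CPM at 10 h to 7849 CPM at 22 h in WT (median 5646), and differed by −0.75 ± 0.16 (adjusted p = 0.00388). At 22 h, the last time, *emp-7* was thus at its minimum in ΔMSN1 and at its maximum in WT. *cfp*, pyruvate decarboxylase, and *fba*, fructose-bisphosphate aldolase, differed by −0.49 ± 0.13 and −0.41 ± 0.12 (adjusted p = 0.0156 and 0.0218). *fba* was lost without 6, 14 or 18 h (adjusted p = 0.0505, 0.0528 and 0.0508), and both were lost on library size alone (adjusted p = 0.0709 for *cfp* and 0.0631 for *fba*). *adh-1*, alcohol dehydrogenase, missed the threshold (−0.47 ± 0.17, adjusted p = 0.0614) and passed without 0, 2 or 10 h. With *pgk* and *ace-8*, which ranked below the members, 6 of 7 listed genes of these pathways fell with TMM factors and 4 on library size alone. Of all tested genes 9.93% and 3.79% did so.

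Among members with a named product, 8 belonged to the protein synthesis machinery. Members without an annotated product could not be assigned to it, so the counts of such genes may be too low. Of 6 ribosomal proteins among the members 4 fell with TMM factors, with a class median of −0.29, and 2 fell and 1 rose on library size alone. *cyh-2*, a ribosomal protein known from cycloheximide resistance, ranged from 1879 to 2628 CPM in ΔMSN1 (median 2176) and from 2218 to 2866 CPM in WT (median 2638). It was lower in ΔMSN1 at all 12 times, though by very little at 10 and 20 h (−0.43 ± 0.06, adjusted p = 0.000299). *crp-7* differed by −0.36 ± 0.09 (adjusted p = 0.00766), *crp-2* by −0.32 ± 0.07 (adjusted p = 0.00614) and *crp-5* by −0.26 ± 0.07 (adjusted p = 0.0185). The fusion of ubiquitin with a ribosomal protein, *ubi::crp-6*, did not pass (−0.15 ± 0.07 with TMM factors and 0.01 on library size alone), and neither did *un-16* with TMM factors (0.01 ± 0.08). Of 11 genes with a cytosolic ribosomal protein symbol, members and others, 9 fell and none rose with TMM factors, and 2 fell and 1 rose on library size alone. Falls were 9.93% of all tested genes with TMM factors and 3.79% on library size alone, and rises 11.9% and 32.5%. Of the translation factors, *tef-1*, which brings aminoacyl-tRNA to the ribosome, fell by 0.35 ± 0.11 on the log2 scale (adjusted p = 0.0319). That call was lost on library size alone (adjusted p = 0.307) and without 0, 2, 6, 12, 14 or 22 h (adjusted p up to 0.0646). *eif5A* did not pass (−0.17 ± 0.10 with TMM factors and 0.00 on library size alone).

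Core histones were the one class with a positive median with TMM factors, 0.09, which was 0.26 on library size alone. Their summed share was 1.62% ± 0.22 in ΔMSN1 and 1.27% ± 0.21 in WT, higher in ΔMSN1 at 11 of 12 times. *hH3* ranged from 4243 CPM at 16 h to 6920 CPM at 4 h in ΔMSN1 (median 5715) and from 2891 CPM at 12 h to 4851 CPM at 20 h in WT (median 3979). Of 12 ΔMSN1 libraries 10 thus lay above the WT maximum, and the rise passed (0.38 ± 0.06, adjusted p = 0.000805). *hH4-1*, which lies next to *hH3* on the chromosome, was also higher in ΔMSN1 at 12 of 12 times but did not pass with TMM factors (0.20 ± 0.08, adjusted p = 0.085), and did on library size alone (0.37, adjusted p = 0.000572). For *hH2A* and *hH2B* the differences were 0.06 ± 0.09 and −0.01 ± 0.09, and that of *hH2B* turned to 0.16 on library size alone. In all, 1 of 5 histones rose with TMM factors and 4 on library size alone, beside 11.9% and 32.5% of all tested genes.

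Cell surface proteins apart from NCU00399 did not pass with TMM factors. *ncw-3* averaged 8455 CPM in ΔMSN1 and 8955 CPM in WT and reached its maximum 2 h later in ΔMSN1, 13180 CPM at 12 h, against 13400 CPM at 10 h in WT. *ncw-5* reached 2773 CPM at 6 h in ΔMSN1 and 6050 CPM at 10 h in WT, a single high library. *acw-3* ranged from 2324 to 4771 CPM in ΔMSN1 (median 3714) and from 2024 to 4357 CPM in WT (median 2670). *acw-3* was higher in ΔMSN1 at 10 of 12 times (0.14 ± 0.12, adjusted p = 0.454) and passed on library size alone (0.30, adjusted p = 0.0469). *gel-3*, a glucanosyltransferase of the wall and the chromosomal neighbour of *ccg-13*, differed by −0.04 ± 0.07 with TMM factors and 0.13 on library size alone. Over all 19 genes with a cell wall symbol, 5 fell and 1 rose with TMM factors, and 3 fell and 5 rose on library size alone. Of all tested genes 9.93% fell and 11.9% rose with TMM factors, and 3.79% and 32.5% on library size alone.

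The maxima and minima of the 100 members were spread unevenly over the times. In ΔMSN1 the 16 h library held 16 maxima and 17 minima, the 10 h library 10 and 22, and the 12 h library 8 and 14. In WT the 10 h library held 14 maxima and 33 minima, the 18 h library 20 and 6, and the 8 h library 0 and 0. Such counts were not made over all tested genes, so they cannot be set against a background. Among the ΔMSN1 levels at 12 h were the maxima of NCU00399, *ccg-13*, *ccg-14*, *ncw-3*, NCU07569 and *gh28-1*, a polygalacturonase, and the minima of *crp-7*, *fba* and *ubi::crp-6*. In WT at 10 h, NCU00399, *ccg-13*, *ccg-14*, *ccg-16*, *ncw-3*, *ncw-5*, *acw-3*, *gel-3*, NCU07569 and *gh28-1* were at their WT maximum. The same WT library held the minima of NCU06110, *nmt-1*, *gpd-1*, *emp-7*, *fba*, *cfp*, *adh-1*, *cyh-2* and *crp-7*. With 1 culture per time, the state of a culture and its time cannot be told apart.

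Conidiation markers were looked at because mycelium in liquid should form few spores. *eas* (*ccg-2*), the hydrophobin of the spore coat, was itself a member. It ranged from 312 CPM at 22 h to 4389 CPM at 8 h in ΔMSN1 (median 1101) and from 379 CPM at 22 h to 5163 CPM at 6 h in WT (median 2711). The ΔMSN1 libraries at 8 and 10 h were high and all the others lay at 1768 CPM or less, whereas WT was at 2632 CPM or more up to 12 h, and the fall passed (−0.88 ± 0.25, adjusted p = 0.0187). Of 4 such markers it was the only one that passed: *con-8* averaged 807 CPM in ΔMSN1 and 712 CPM in WT, *con-10* 80.9 CPM in ΔMSN1 and 97.7 CPM in WT, and *con-6* 4.22 CPM in ΔMSN1 and 6.37 CPM in WT. Summed over the 4 markers the level ran from 790 CPM at 22 h to 5263 CPM at 8 h in ΔMSN1 and from 983 CPM at 22 h to 6050 CPM at 6 h in WT, and no marker was at 0 in any library. What part spore-forming cells had in these levels was not tested.

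Further annotated members covered protein folding, energy and defence. *csr-1*, a cyclophilin, averaged 5811 CPM in ΔMSN1 and 6195 CPM in WT (−0.26 ± 0.10, adjusted p = 0.0685, and past the threshold without 2, 10 or 16 h). NCU07232, a small heat shock protein, fell (−0.66 ± 0.19, adjusted p = 0.0188), with 1071 CPM at 18 h to 3156 CPM at 14 h in ΔMSN1 (median 1726) and 874 CPM at 4 h to 6860 CPM at 16 h in WT (median 2427). WT was above ΔMSN1 at each time from 12 to 20 h. *oli*, subunit 9 of ATP synthase, averaged 4830 CPM in ΔMSN1 and 4831 CPM in WT (−0.16 ± 0.09 with TMM factors and 0.01 on library size alone). *aac*, the ADP/ATP carrier of mitochondria, differed by −0.07 ± 0.09 with TMM factors and 0.09 on library size alone, and *fkr-2*, an immunophilin, by −0.12 ± 0.09 with TMM factors and 0.05 on library size alone. *hex-1*, the core protein of the Woronin bodies that plug septal pores, averaged 5523 CPM in ΔMSN1 and 4660 CPM in WT (0.07 ± 0.10, adjusted p = 0.637). *sod-1*, superoxide dismutase, fell by 0.50 ± 0.12 on the log2 scale (adjusted p = 0.00927), and *ndk-1*, nucleoside diphosphate kinase, by 0.30 ± 0.08 (adjusted p = 0.0131, and 0.115 on library size alone).

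Many members are genes whose product is not named in the sources used. In all, 57 members had no annotated product, 10 of them listed as hypothetical proteins, and they held 17.3% of the ΔMSN1 libraries and 17.9% of the WT libraries on average. Of these 57, 26 fell and 2 rose with TMM factors (9.93% and 11.9% of all genes tested), and 7 fell and 6 rose on library size alone (3.79% and 32.5%). NCU07569 had the largest fall of any member (−0.92 ± 0.18, adjusted p = 0.00252), with 899 CPM at 22 h to 5643 CPM at 12 h in ΔMSN1 (median 2682) and 2473 CPM at 20 h to 7955 CPM at 10 h in WT (median 4296). The rises were NCU04276 (0.50 ± 0.15, adjusted p = 0.0259) and NCU00811 (0.43 ± 0.09, adjusted p = 0.00254). NCU04276 ranged from 1850 to 4027 CPM in ΔMSN1 (median 2638) and from 929 to 2738 CPM in WT (median 1789), and its call was lost without 22 h (adjusted p = 0.068). NCU00811 ranged from 1696 CPM at 0 h to 3474 CPM at 22 h in ΔMSN1 (median 2161) and from 1189 to 2063 CPM in WT (median 1552). NCU00618, NCU08949 and NCU03302 fell by 0.43 ± 0.08, 0.41 ± 0.09 and 0.36 ± 0.09 on the log2 scale (adjusted p = 0.00249, 0.00355 and 0.011), each lower in ΔMSN1 at 11 of 12 times. High on the list, NCU05490 fell by 0.42 ± 0.12 (adjusted p = 0.0226) and NCU00979 by 0.35 ± 0.11 (adjusted p = 0.0325, and above 0.05 without 0, 4, 6, 8, 12, 14 or 18 h, and 0.069 on library size alone). NCU09089, NCU05498, NCU00315 and *mig-6*, with means of 7777, 6952, 6226 and 6325 CPM, did not pass, and their differences of −0.14, −0.15, −0.11 and −0.07 turned to 0.03, 0.01, 0.06 and 0.10 on library size alone.

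**Figure D4:**
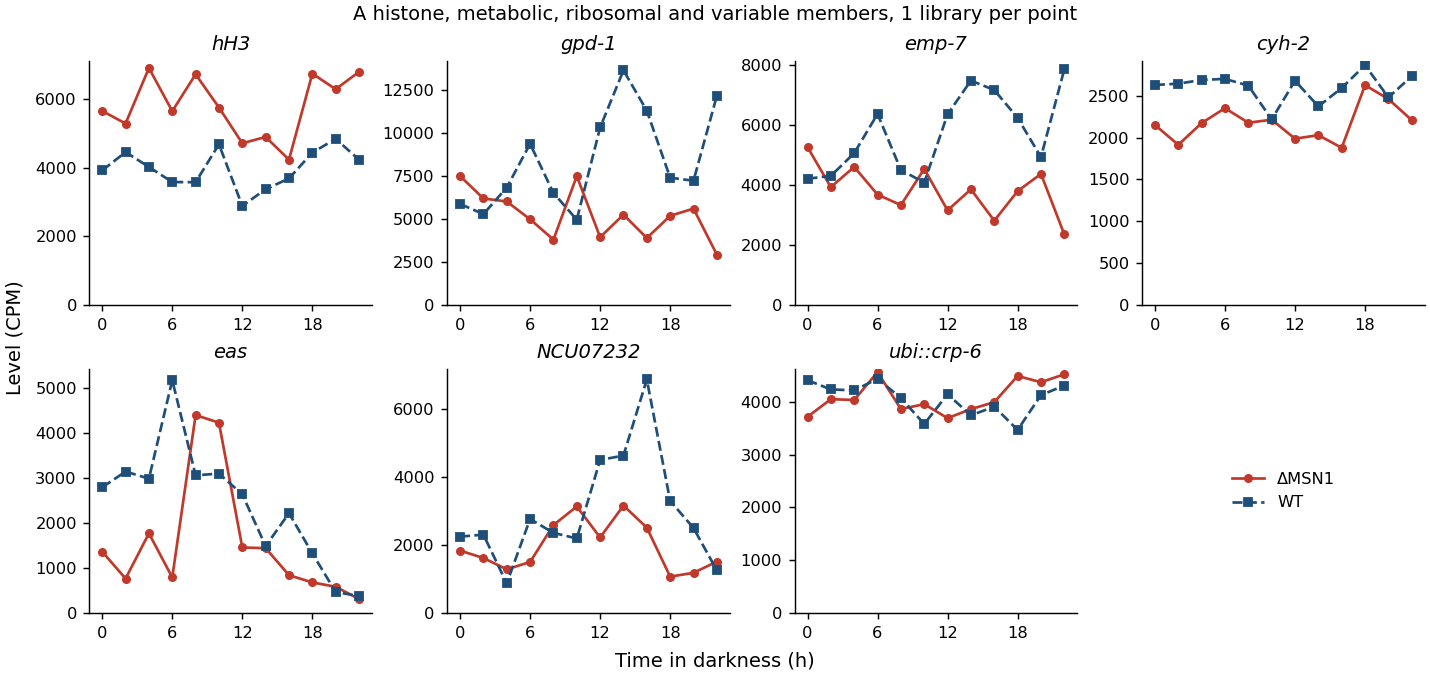
Level in CPM (y axis) of 7 members against hours in darkness (x axis), with ΔMSN1 in red circles and WT in blue squares and 1 library per point. *hH3* lies above WT in ΔMSN1 at all 12 times and *cyh-2* below it. *gpd-1* and *emp-7* lie below WT in ΔMSN1 at most times (9 and 10 of 12). *eas* has its peak in the earlier part of the series and its minimum at 22 h in both strains. *ubi::crp-6* stays between 3466 and 4560 CPM.

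Differences between times, averaged over both strains, were called for 1 member, *ccg-1* (adjusted p = 0.0002, and between 0.000161 and 0.00271 with each time left out), where 1.55% of all tested genes passed. This test does not show that a difference was present in each strain. The next were *eas* (adjusted p = 0.0566), NCU07232 (0.15), NCU05490 (0.208) and NCU07569 (0.21). At an unadjusted p below 0.05 there were 11 members, beside 12.9% of all tested genes. The likelihood ratio test of DESeq2 called 9 members and 5.57% of all tested genes, among them all 5 just named. *eas* passed with values multiplied by gene length (adjusted p = 0.042), and its adjusted p ran from 0.00657 to 0.34 with each time left out.

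Rhythms were tested in each strain with cosine and sine terms of 22, 11 and 7.3 h, in which 0 and 22 h have the same phase. In ΔMSN1 none of the members passed at a false discovery rate of 0.1 in edgeR, where 0.041% of 7321 tested genes did. Limma-voom called none either. At an unadjusted p below 0.05 stood 8.07% of all tested genes and 6 members, led by NCU07232 (p = 0.00118), *ccg-1* (p = 0.00489) and *gh28-1* (p = 0.00692). Without 22 h, NCU07232 passed (1 member). In WT 1 member passed, *ccg-1*, where 0.318% of 7239 tested genes did. The 22 h term of *ccg-1* had a peak-to-trough fold of 2.89 and a peak at 13.7 h in ΔMSN1, where the gene did not pass (adjusted p = 0.408), and a fold of 2.91 and a peak at 13.4 h in WT (adjusted p = 0.0834). Limma-voom called no member in WT, and 14 members were at an unadjusted p below 0.05, beside 12.7% of all tested genes. The WT count ran from 0, without 2, 4, 6, 8, 14, 16, 18 or 20 h, to 3 without 22 h and 7 without 0 h, so the rhythm calls rest on single libraries.

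In ΔMSN1 the term with the largest F was the 11 h term for 52 members, the 22 h term for 33 and the 7.3 h term for 15, beside 48.2%, 29.9% and 21.9% of all tested genes. In WT it was the 22 h term for 47 members, the 7.3 h term for 35 and the 11 h term for 18, beside 40.05%, 34.8% and 25.2% of all tested genes. *gpd-1* and *adh-1* were among the WT members strongest at 7.3 h. A direct test of the difference of rhythm between strains called none of the members and 0% of all 7310 tested genes. At an unadjusted p below 0.05 were 6 members and 318 genes (4.35% of all tested genes). The smallest p among members belonged to NCU08720 (p = 0.00681), NCU04502 (p = 0.00713), *gh28-1* (p = 0.0168) and *adh-1* (p = 0.0268), each at an adjusted p of 0.911 or 0.918. For *gh28-1* the ΔMSN1 libraries ranged from 767 CPM at 22 h to 3832 CPM at 12 h (median 1402) and the WT libraries from 1252 CPM at 22 h to 5707 CPM at 10 h (median 2363).

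The members' median coefficient of variation was 14.6% in ΔMSN1 and 14.3% in WT, beside 23.3% in ΔMSN1 and 18.1% in WT over all 7310 genes that reached 2 CPM on average. Low values vary more through counting error alone, and the part of this was not tested. The steadiest over all 24 libraries were NCU01317 (7.29%), *ubi::crp-6* (7.56%), NCU02744 (7.70%) and NCU07829 (7.72%). *ubi::crp-6* ranged from 3690 to 4560 CPM in ΔMSN1 and from 3466 to 4434 CPM in WT. NCU01317 was nonetheless called lower with TMM factors (−0.20 ± 0.07, adjusted p = 0.048), a call that held only without 10 or 16 h and not on library size alone (adjusted p = 0.704). The most variable were *eas* (70.1%), NCU07232 (54.6%), *gh28-1* (51.6%) and *ncw-5* (46.05%).

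Membership changed mainly at the end of the list. Ranked within a single library, 82 to 97 of the members in ΔMSN1 and 88 to 97 in WT were among its own 100 highest genes, and 59 members were so in all 24 libraries. The fewest, 82, were in ΔMSN1 at 22 h, where NCU10040 stood at 3571 CPM and NCU00995 at 2567 CPM, against means of 492 and 482 CPM over all libraries. Both were looked at after their values were seen. Means taken in the 12 ΔMSN1 libraries alone or in the 12 WT libraries alone would each have chosen 97 of the same 100 genes. At the edge, NCU00475, *crp-2* and NCU03988 had means of 1747, 1733 and 1728 CPM and were kept, and NCU03150, NCU03102 and *acw-5* had 1714, 1714 and 1712 CPM and were not.

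In the gene order of the RefSeq annotation (assembly NC12), of 100 members 15 had another member as direct neighbour, against 182 of 9629 other genes (1.89%). There were 8 such pairs, among them *hH3* with *hH4-1*, *ubi::crp-6* with *crp-5*, *gel-3* with *ccg-13*, NCU07829 with *crp-2*, NCU07808 with *fba* and NCU05490 with NCU05488, an RNA-binding protein. The run NCU09475, NCU09476 and *aac* made up the other two. Whether reads of neighbours overlap was not tested. The median gene length was 1702 bp for members and 2137 bp for the other genes.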

How the data were processed

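The authors deposited estimated counts per gene, 1 column per library, for 24 libraries, and the submitters' processing notes name kallisto 0.43.1. Its transcriptome build was not given in these sources. The estimated counts were not whole (11.5 to 15.4% of values per library were, within 1e-06), and their scaling by gene length is not known. Depth was 2415479 to 9829687 estimated counts, and 0 columns were left unmapped. CPM were computed on column sums. For tests the estimated counts were rounded, genes below 2 CPM on average were left out, and edgeR 4.0.16 (quasi-likelihood, TMM, Benjamini-Hochberg over all tested genes) was run in R 4.3.3 with strain and 12 times, or with 6 harmonic terms. Errors of log2 differences are standard errors. With 1 culture per strain and time, no p-value measures the spread between replicate cultures. In the strain and time tests the error is how far the strain difference varied from time to time. In the rhythm tests it is the spread of the cultures around the fitted curves. Alternatives used limma 3.58.1 and DESeq2 1.42.0, other scalings, filters and units, and each time left out; leaving out 22 h on library size alone, and the share without its 7 highest members or without 22 h, were added after seeing the data. The tests were also run on simulated counts, drawn independently and without effects of culture or lane. That run cannot speak to such effects, and the fold changes it could detect are not reported here. Python 3.11.15, numpy 2.4.6, pandas 2.3.3 and matplotlib 3.10.9 were used.

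Members and lists were chosen with earlier results of these data known. Named were the 15 highest means, the 6 largest rises and falls that went one way at 12 of 12 times (11 of 12 for falls, as fewer than 6 went one way at 12), members called for rhythm or the 3 smallest p, the 5 smallest p for time and 4 for strain by rhythm, the 4 largest and smallest coefficients of variation, ranks 98 to 103, and the 2 to 4 highest of each class. *sod-1*, *un-16*, NCU05488, *pgk*, *ace-8* and the neighbouring genes were named outside this rule, after their values were seen. Classes follow the symbols and products in the study's tables and in RefSeq. Promoter motifs, protein lengths, mitochondrial ribosomal proteins, further glycolytic genes and ATP synthase subunits were planned and not analysed here.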

Additional observations from a re-analysis of the deposited data

How the results depend on the processing

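The list of members was stable: 84 to 100 of them were chosen under 7 other rankings. Their mean share moved with its definition. In ΔMSN1 it was 20.1% for the top 10 genes, 36.5% for the top 50, 59.4% for the top 200, 32.6% without the first 5, 29.5% without the first 7 and 43.6% with values times gene length. In WT it was 22.6% for the top 10 genes, 39.7% for the top 50, 63.1% for the top 200, 34.5% without the first 5, 30.8% without the first 7 and 47.5% with values times gene length. Without 22 h it was 47.7% in ΔMSN1 and 51.1% in WT.

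Strain counts moved on library size alone, to 12 members higher and 16 lower in ΔMSN1 and 2377 and 277 of all genes, and without 22 h as well to 8 and 14 members. With each time left out, 25 to 55 members were lower and 2 to 3 higher, and 544 to 821 of all genes were lower and 611 to 955 higher. On library size alone, 21 members below 0 with TMM factors turned to above 0, none past the threshold under either scaling. Among the genes named by the rule these were NCU09089 (0.0252), NCU05498 (0.0134), *mig-6* (0.1003), NCU00315 (0.0561), *oli* (0.00825), *eif5A* (0.00136), *ubi::crp-6* (0.0139), *gel-3* (0.126), *aac* (0.0941), *fkr-2* (0.0459), NCU04502 (0.0126), *hH2B* (0.16), NCU02744 (0.0344) and the non-member NCU03102 (0.0273). *hH2B* ran from −0.0576 to 0.0406 with each time left out.

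Time calls became 2 members with values times gene length and 9 members and 407 genes with DESeq2. With each time left out they ran from 1 to 2 members and from 65 (without 0 h) to 133 of all genes. WT rhythm calls became 0 members and 6 genes both with limma-voom and at adjusted p below 0.05, and 58 genes with values times gene length. With each time left out they ran from 0 to 7 members and from 0 to 454 genes in WT, and from 0 to 1 member and 0 to 82 genes in ΔMSN1, where library size alone gave 1 gene. With 22 h terms alone, strain by rhythm gave 2 genes. The strain test is paired by time, which is a factor in it. Without the time term 40 members were lower and 2 higher in ΔMSN1, and 639 and 853 of all genes. Limits: 1 culture per strain and time, strain and lane not separable, levels that are shares of a library, and values whose scaling is not known, so depth sets no exact counting error here.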
